A study of Mus musculus with 2 samples.

Results

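The genes of sterol and fatty acid synthesis were followed in the gastrocnemius, a calf muscle, of mice whose hindlimb had been immobilised. The 33 genes were fixed by name, and their probes were all non-control probes of the array that carry one of those gene names, which gave 47 probes of 39418 with a value. For 32 of the 33 genes, at least 1 probe stood well above background in both pools, and 17779 gene names of the whole array were measured in the same way. Fads2, a fatty acid desaturase, was the gene left out, since both of its probes stayed near background in control and cast alike. Both groups were male wild-type C57BL/6 mice, 9 weeks old. The cast group had worn a plaster cast for 11 days and the control group was without one. The design text gives N = 6 for each group and states that the RNA was pooled, so each group is 1 array of 1 pool, with no replicate, no test and no SE. A difference between them is a difference between 2 pools, and its precision is set by having so few arrays.

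Cholesterol is built from acetyl-CoA through mevalonate, squalene and lanosterol, and fatty acids are built from the same acetyl-CoA by carboxylation, chain growth, elongation and desaturation. The SREBP transcription factors, encoded by Srebf1 and Srebf2, drive the genes of both routes. They are carried from the endoplasmic reticulum to the Golgi for activation by the escort protein Scap, and the Insig proteins hold that complex back when sterols are plentiful. In skeletal muscle these routes supply membranes and lipid stores, and Scd1, which makes monounsaturated fatty acids, is known there as a gene that responds to diet and insulin.

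The members furthest from 0 were 2 fatty acid desaturases and 2 sterol reductases. Scd1, a desaturase, was 2.32-fold higher on the cast array. Its close relative Scd2 was 1.83-fold lower, and the reductases Dhcr7 and Tm7sf2 were 2.22-fold and 2.09-fold lower. The remaining genes were closer to 0, with Srebf1 lower by 1.57-fold and Lss higher by 1.51-fold as the other members past 1.5-fold. All 6 kept their sign in every alternative way of processing that gave a value. These results rest on few probes, 2 for Tm7sf2 and 1 each for Scd1, Scd2 and Dhcr7, so the first 30 of the 60 bases of each probe are given as the array's sequence column holds them, 5′ to 3′.
Scd1: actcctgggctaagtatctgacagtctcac
Scd2: acatttggggatcctctgcagaggagtatt
Dhcr7: tcagaggccattgaagaagggaggcttttt
Tm7sf2, brighter probe: cttaccgaatcataccctatgtctactgaa
Tm7sf2, dimmer probe: ttactacatcttccgaggggccaactccca

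The Scd1 probe lies at chr19:44469387-44469446 on the minus strand and the Scd2 probe at chr19:44381024-44381083 on the plus strand, both on the mm9 assembly. Over their 60 bases, the Scd1 and Scd2 probes share no run longer than 6 bases, and their best ungapped alignment matched 21 of 48 bases. The Dhcr7 probe lies at chr7:151033874-151033933 on the plus strand. Those of Tm7sf2 lie at chr19:6062882-6062941 and chr19:6063541-6063600 on the minus strand, without overlap. Whether these positions are coding or untranslated was not looked up, because no mm9 gene models were used here.

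A value below is a scaled signal, the processed spot intensity in percent of the 75th percentile of its array, so that 100 is the 75th percentile. The log2 ratio is that of cast over control. Levels of different probes cannot be set against each other, because probes differ in how strongly they bind. Error is given as a spot-level SD of that ratio, taken from 259 other probes that were printed in replicate. Ordered by signal into 4 bins, these had an SD of 0.16 in the dimmest bin, of 65 probes, and 0.08 in the brightest. The SD leaves out differences among mice and among hybridisations. Of the 32 measured members, 26 had a log2 ratio larger than 1 spot-level SD and 20 larger than 2. The share of all measured genes past these limits was not counted, so the 2 counts do not set the members apart. The dimmest probe called well above background had a scaled signal of 3.40 in control and 4.23 in cast. The muscle itself was evident from high signals of all 10 skeletal muscle marker genes. Ckm, muscle creatine kinase, was at 49156 in control and 38028 in cast. Of these markers 8 were below 0, with a median log2 ratio of -0.24, which ranged from -0.33 to 0.11 over the alternatives, and summed signals of 388895 and 317011. Tnni2, a fast troponin, was 1.51-fold lower. How this bears on the values of the 32 genes was not tested.

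As a group, the 32 members were close to the rest of the array. Their median log2 ratio was -0.14, against -0.03 for all 17779 measured genes. Higher in cast by 1.5-fold or more were 2 of 32 members, or 6.25%, beside 7.23% of all genes, and at least 1.5-fold lower were 4, or 12.5%, beside 8.12%. At 2-fold, 1 member was higher, or 3.12%, beside 2.30% of all genes, and 2 were lower, or 6.25%, beside 2.01%. Below 0 were 21 members, or 65.6%, beside 52.9% of all genes. A single gene is 3.12% of the members. The directions depend on the common scale: with no scaling, or with scaling on the spike-in control probes, the median of all genes moved by 0.34 and 0.35, and only 7 of 32 members were below 0 in either case. The distance between the median of the members and that of all genes stayed at -0.11.

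**Figure D1:**
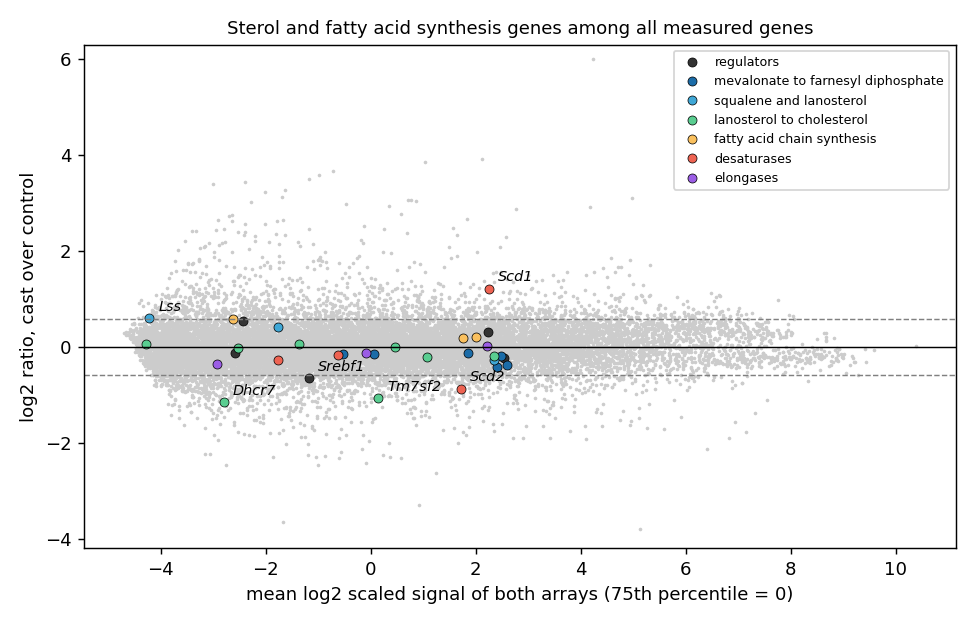
Each grey point is 1 of the 17779 measured genes, with the mean log2 scaled signal of both arrays on the horizontal axis and the log2 ratio of cast over control on the vertical axis; coloured points are the 32 members by role, and dashed lines mark 1.5-fold. Scd1 lies above the upper line at 1.21, with Lss just above it at 0.60, and Dhcr7, Tm7sf2, Scd2 and Srebf1 lie below the lower one.

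Among the regulators, the SREBP genes differed from each other. Srebf1, the factor mainly tied to fatty acid genes, had a scaled signal of 55.8 in control and 35.4 in cast, a log2 ratio of -0.65 with a spot-level SD of 0.10. Srebf2, the factor mainly tied to sterol genes, had 15.4 and 22.3, a log2 ratio of 0.54 with a spot-level SD of 0.16. A dimmer Srebf2 probe cleared background in cast alone, at 5.32, and was there at least 1.56-fold higher than in control, a bound from the lowest signal called there. The Srebf2 ratio exceeded that of Srebf1 by 1.19 on the log2 scale, a difference that scaling by a constant does not touch. With normexp background correction, a model-based way of removing background, it was 0.66, as Srebf2 became 0.18 and Srebf1 became -0.48. Srebf1 stayed below 0 and Srebf2 above 0 under each of the alternatives run. The 1.5-fold difference of Srebf1 was lost with median scaling at -0.58, with normexp background correction, and also unscaled, at -0.32, and on the spike-in scale, at -0.30.

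The proteins that handle the SREBP factors differed less. Scap was at 422.9 in control and 523.4 in cast, a log2 ratio of 0.31 that stayed above 0 in every alternative. Insig2 was at 627.8 and 532.5, a log2 ratio of -0.24, and its dimmer probe gave -0.28. Insig1, itself a known SREBP target, was at 17.4 and 16.0, a log2 ratio of -0.12 that was smaller than its spot-level SD of 0.16. Both Insig values turned above 0 with no scaling and spike-in scaling. By the brightest probe and with 75th percentile scaling, Srebf1 alone among the regulators was 1.5-fold apart. Unscaled and on the spike-in scale, Srebf1 was not, whereas Scap was, at 0.65 and 0.66, as was Srebf2, at 0.88 and 0.89. Median, quantile and loess scaling put Srebf2 at 0.62, 0.59 and 0.62.

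The early sterol enzymes, from Hmgcs1 to Fdps, were all slightly lower on the cast array, 6 of 6 below 0 with a median log2 ratio of -0.17. Of these, only Hmgcs1 and Pmvk stayed below 0 with no scaling and spike-in scaling, where the median of the group became 0.16 and 0.18. Hmgcs1, which makes HMG-CoA, was at 692.0 in control and 529.9 in cast, a log2 ratio of -0.39. Pmvk, a kinase of mevalonate phosphate, was at 618.4 and 459.1, a log2 ratio of -0.43, and its dimmer probe gave -0.46. Mevalonate kinase (Mvk), the decarboxylase Mvd, the isomerase Idi1 and farnesyl diphosphate synthase (Fdps) had log2 ratios from -0.20 to -0.14. Those of Mvk, Mvd and Idi1 were within 2 spot-level SDs of 0. None of the 6 was 1.5-fold apart.

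The steps around squalene split. Fdft1, squalene synthase, was at 561.7 and 466.1, a log2 ratio of -0.27 that turned above 0 with no scaling and spike-in scaling. Its probe covers 60 bases but spans 4241 bases of the genome, so it crosses an intron. A dimmer Fdft1 probe cleared background in control alone, at 4.99, and was there at least 1.18-fold higher. Sqle, squalene epoxidase, was higher on the cast array at 25.5 and 34.1, a log2 ratio of 0.42. Lss, which closes squalene epoxide into lanosterol, was at 4.36 and 6.60, a log2 ratio of 0.60 with a spot-level SD of 0.16. Those signals are near the lowest called well above background, and with normexp background correction Lss was at 0.12 and Sqle at 0.25.

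From lanosterol to cholesterol, 2 of 8 enzymes were lower by more than 2-fold, or 25.0%, beside 2.01% of all genes. In so small a group a single gene weighs heavily. The other 6 had log2 ratios from -0.22 to 0.07. Tm7sf2, the sterol reductase that acts soon after lanosterol, had a scaled signal of 159.6 in control and 76.2 in cast, a log2 ratio of -1.07 with a spot-level SD of 0.09. Its dimmer probe had 28.2 and 13.0, a log2 ratio of -1.12, so both probes gave the same size. Dhcr7, the reductase of the last step to cholesterol, had 21.5 and 9.68, a log2 ratio of -1.15 with a spot-level SD of 0.16, from a single dim probe. Only 1.71% of all measured genes had a lower ratio than Tm7sf2, and 1.33% a lower one than Dhcr7. Over the alternatives, Tm7sf2 ranged from -1.09 to -0.72 and Dhcr7 from -1.24 to -0.67, always past 1.5-fold. Dhcr7 had its smallest difference with normexp background correction.

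The neighbouring enzymes showed no such difference. Sc4mol, a methylsterol oxidase now named Msmo1, was at 137.5 and 137.4. Cyp51, lanosterol demethylase, was at 5.07 and 5.26, and Nsdhl, a sterol dehydrogenase, at 17.5 and 17.3. Hsd17b7, a ketosteroid reductase, was at 38.1 and 39.9. By their brightest probes, these 4 differed by less than 1 spot-level SD each. The dimmer Hsd17b7 probe had a log2 ratio of 0.26 with a spot-level SD of 0.16. The signals of Cyp51 are near the lowest called well above background, and its log2 ratio ranged from -0.13 to 0.40 over the alternatives. Nsdhl rests on 1 dim probe, since its other probe stayed near background. The isomerase Ebp and the desaturase Sc5d had log2 ratios of -0.20 and -0.22, which turned above 0 with no scaling and spike-in scaling. Lbr, a protein of the nuclear envelope with sterol reductase activity like that of Tm7sf2, was at 202.2 and 213.8.

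**Figure D2:**
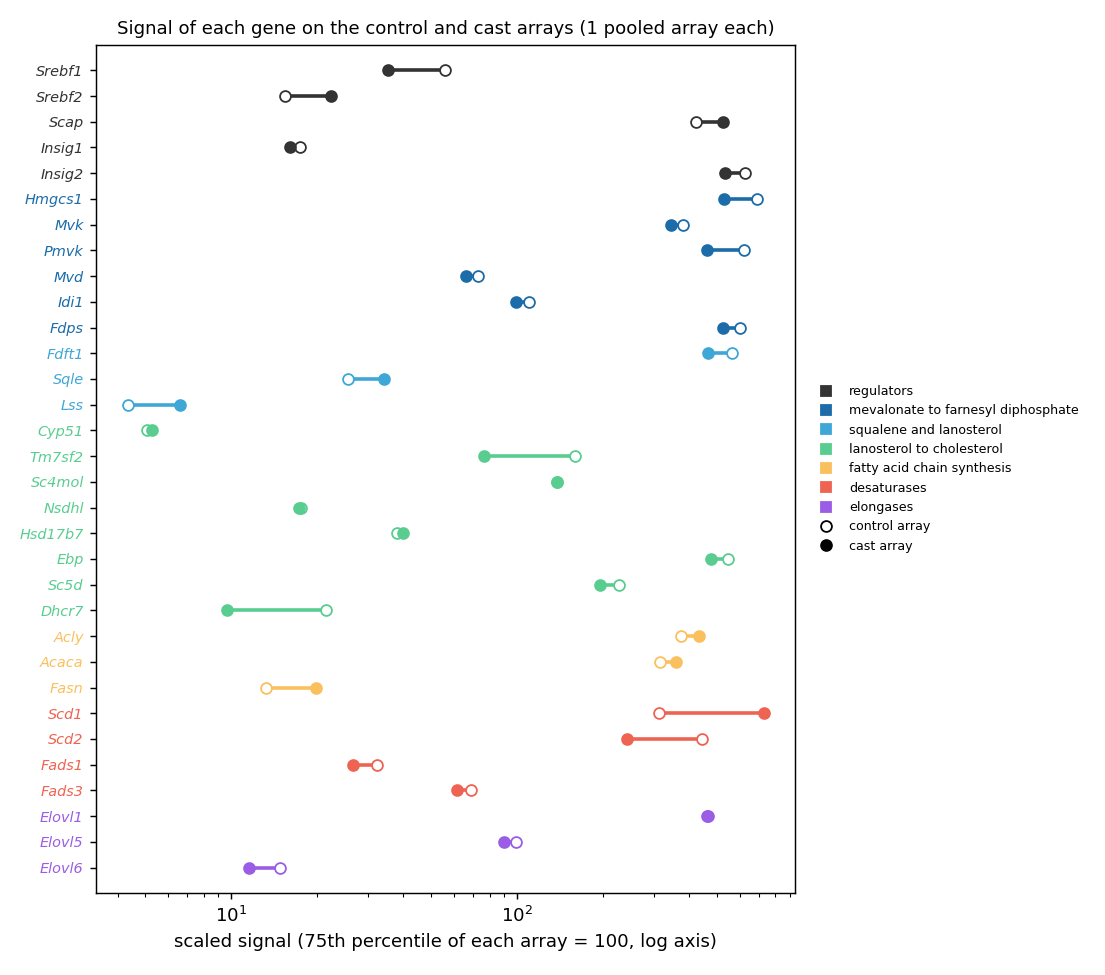
Scaled signal of each gene's brightest measured probe on a log axis, with the control array as open and the cast array as filled circles, 1 pooled array each, ordered and coloured by role; the position along the axis cannot be compared between genes. The long lines of Tm7sf2, Dhcr7 and Scd2 run to lower values on the cast array and that of Scd1 to higher ones, while the circles of Sc4mol lie on each other.

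The 3 enzymes that make the saturated chain were all higher on the cast array, and each stayed above 0 in every alternative. Their median log2 ratio was 0.21, beside -0.03 for all genes, of which 52.9% were below 0. Acly, which makes acetyl-CoA from citrate, was at 372.7 and 432.1, a log2 ratio of 0.21. Acaca, acetyl-CoA carboxylase, was at 315.3 and 357.8, a log2 ratio of 0.18. Its second probe, which shares 59 bases with the first, gave 0.24, and a dim probe far upstream gave 0.52. Fasn, fatty acid synthase, was at 13.2 and 19.7, a log2 ratio of 0.57 with a spot-level SD of 0.16, just short of 1.5-fold. Fasn was at 0.27 with normexp background correction.

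The desaturases held the widest spread of the set. Scd1 had a scaled signal of 313.5 in control and 726.9 in cast, a log2 ratio of 1.21 with a spot-level SD of 0.08. Of all measured genes, 1.36% had a higher ratio. Scd2 had 443.7 and 242.7, a log2 ratio of -0.87 with a spot-level SD of 0.08, and 2.96% of genes had a lower one. These neighbouring genes of chromosome 19 encode enzymes with the same reaction, and the ratio of Scd1 exceeded that of Scd2 by 2.08 on the log2 scale, or 4.24-fold. That difference had a spot-level SD of 0.11 and ranged from 2.01 to 2.08 over the alternatives. Scd1 was past 1.5-fold in every alternative, from 1.19 to 1.56, whereas Scd2 was at -0.53 unscaled and at -0.52 when scaled on the spike-ins, short of 1.5-fold. A further relative, Scd3, was at 93.2 and 117.5, a log2 ratio of 0.33, and Scd4 stayed near background in both pools.

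The desaturases and elongases of longer chains differed little. Fads1 and Fads3, relatives of the fatty acid desaturase Fads2, had log2 ratios of -0.28 and -0.17, both above 0 with no scaling and spike-in scaling. Of the elongases, Elovl6, which extends palmitate, was at 14.8 and 11.5, a log2 ratio of -0.36. It stayed below 0 in every alternative, but only just, at -0.03 without scaling and -0.01 with spike-in scaling. Elovl5, an elongase of polyunsaturated chains, was at -0.13, which turned to 0.20 and 0.22 in the same settings. Elovl1, an elongase of saturated long chains, was at 461.9 and 465.1, and its dimmer probe had 39.7 and 41.1.

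**Figure D3:**
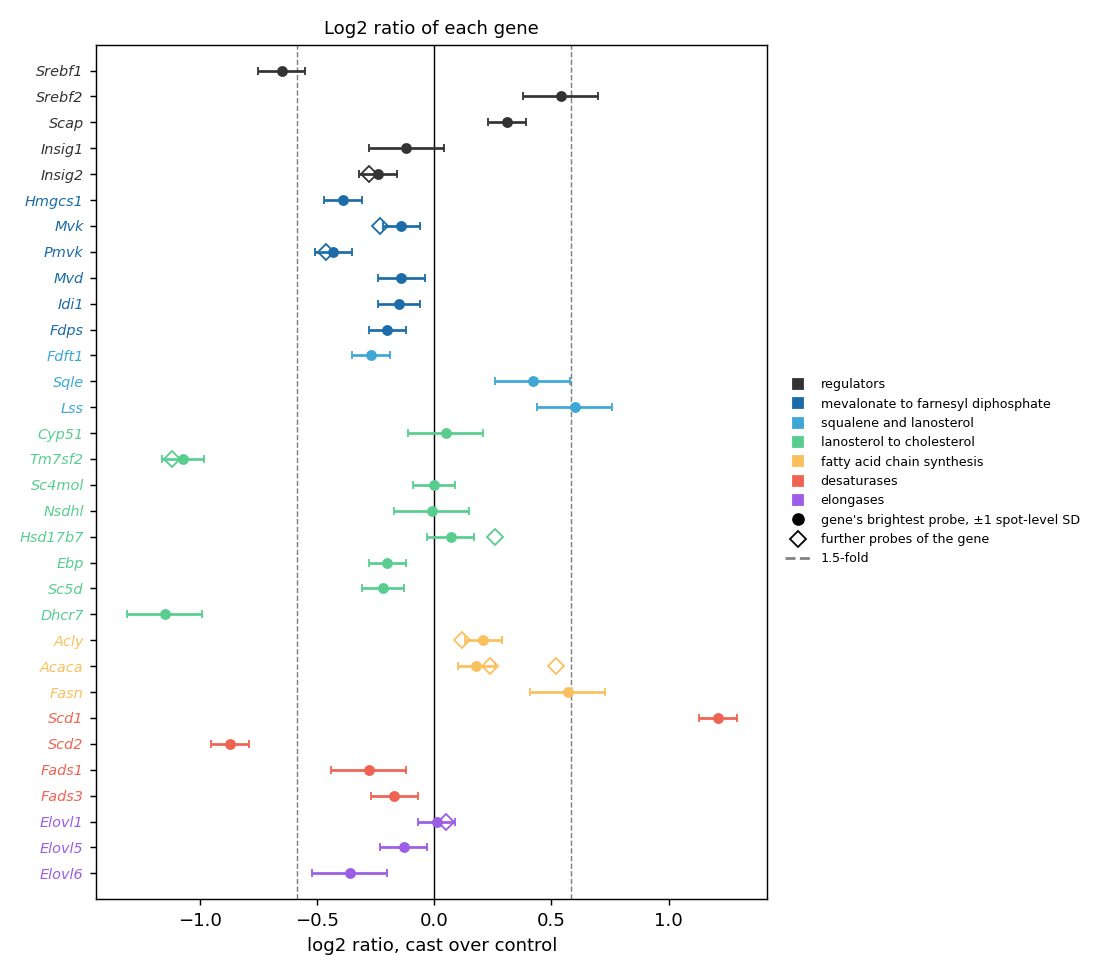
Log2 ratio of cast over control for the 32 measured genes, by role: filled circles are each gene's brightest probe with a bar of 1 spot-level SD on each side, diamonds are further probes measured on both arrays, and dashed lines mark 1.5-fold. The 8 genes with several measured probes have all of them on the same side of 0, and the largest distance between probes of a gene is 0.34, in Acaca.

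Probes of the same gene could be compared for 8 members. All probes of a gene had the same sign in each of the 8, and in 6 of them they lay within 0.1 on the log2 scale. The exceptions were Hsd17b7, at 0.07 and 0.26, and Acaca. The remaining 24 measured members rested on 1 probe.

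**Figure D4:**
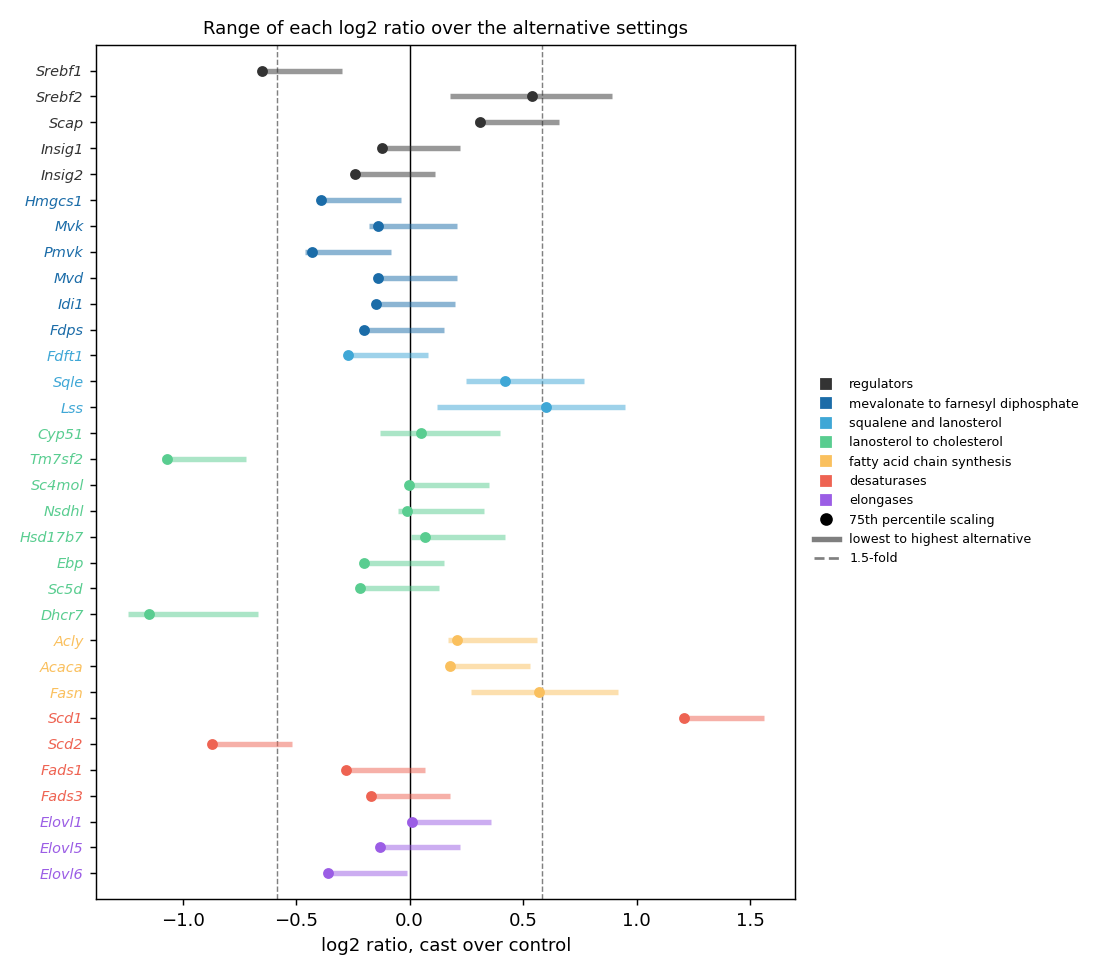
For each of the 32 genes, the point is the log2 ratio of cast over control with scaling on the 75th percentile, and the bar runs from the lowest to the highest value over the alternative settings; dashed lines mark 1.5-fold. The bars of Scd1, Tm7sf2 and Dhcr7 stay outside the dashed lines, while those of 16 genes touch or cross 0.

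Further genes of the pathways were taken from 2 lists. Of 23 further sterol genes, covering regulators, uptake and export, 19 were measured with a median log2 ratio of 0.03, and 1 was at least 1.5-fold higher and 2 lower. These are 5.26% and 10.5% of the list, beside 7.23% and 8.12% of all genes. Abca1, which exports cholesterol from cells, was at 124.8 in control and 298.7 in cast, a log2 ratio of 1.26. Abcg1, a further cholesterol exporter, was lower at 41.2 and 25.6, and Acat2, a thiolase at the entry to the mevalonate route, was lower at 19.1 and 11.2. All 3 kept their sign in every alternative.

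Of 26 further fatty acid genes, 23 were measured with a median log2 ratio of -0.04, and 1 was at least 1.5-fold higher and 3 lower. These are 4.35% and 13.0% of the list, beside the same 7.23% and 8.12% of all genes. Dgat2, which makes triglyceride, was at 1602 and 635.0, a log2 ratio of -1.33. Acss2, which makes acetyl-CoA from acetate, was at 401.5 and 198.8, a log2 ratio of -1.01. Thrsp, a nuclear protein tied to fat synthesis, was at 457.3 and 285.0. Pnpla3, a lipid droplet protein, was higher at 16.5 and 24.9, a log2 ratio of 0.59 that was 0.14 with the mean of its probes. Acacb, the muscle form of acetyl-CoA carboxylase, was at 4002 and 3277, a log2 ratio of -0.29 that turned above 0 with no scaling and spike-in scaling.

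Fat and nerve sheath cells also make sterols and fatty acids, and in whole muscle fewer cells of a type and less RNA per cell cannot be told apart. Of 10 adipocyte markers 9 were measured, with 7 below 0 and a median of -0.18, which ranged from -0.29 to 0.17 over the alternatives. Their summed scaled signal was 29878 in control and 40351 in cast, and 9847 and 8796 without carbonic anhydrase Car3, which muscle also expresses and which was set aside after its values were seen. Adiponectin (Adipoq) was at 313.1 and 254.0 and leptin (Lep) was not well above background. At least 1.5-fold higher were 2 of the 9 adipocyte markers, Car3 and Retn, with Retn at 148.7 and 270.3. Another 2 were at least 1.5-fold lower, Adrb3 at 11.6 and 4.36 and Pck1 at 81.6 and 54.2. These are 22.2% in each direction, beside 7.23% and 8.12% of all genes. Of 10 Schwann cell markers on the array all were measured, with 6 below 0, a median of -0.12, a range of -0.12 to 0.23 and summed signals of 1070 and 1059. All 6 fibroblast markers were below 0, with a median of -0.74 and a range of -0.75 to -0.39 over the alternatives, and a sum of 15660 and 11038. The 5 macrophage genes measured out of 7 had a median of 0.01, 3 of them above 0, and sums of 1991 and 1615. Itgam made up most of both sums, at 1381 in control and 953.3 in cast, whereas Lyz2 and Mrc1 had log2 ratios of 0.58 and 0.50. Cd68 and Cd163 were not well above background on either array. Endothelial genes had a median of -0.32 over 5 genes, with sums of 1132 and 835.6, and red cell genes one of 0.14 over 4, with sums of 22528 and 25600. What these cell types contributed to the values of the 32 genes was not tested.

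Promoter sequences from RefSeq on GRCm38, 250 bases before to 50 after a start site, were matched for 27 of the 33 genes, with 36 windows. Scd1, Scd2, Fads1, Fdft1, Fdps and Sqle had no window. For the sterol element a single spelling was searched, so other forms of it would be missed. Letters known from promoters of SREBP targets were searched on both strands, and a match only describes the letters. The core of the sterol regulatory element, TCACNCCAC, was in 1 of the 36 windows, or 2.78%, that of Hmgcs1, against 1.24% of all 32851 windows in the table, which cover genes of every kind. The CCAAT box, CCAAT, to which the cofactor NF-Y binds, was in 24 windows, or 66.7%, against 37.4%. The GC box, GGGCGG, was in 27, or 75%, against 35.7%, and the E-box, CACGTG, in 7, or 19.4%, against 7.15%.

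Stretches of 100 bases upstream of the start are shown for members described above with 1 window each. The first is Hmgcs1, with the only match to TCACNCCAC, at chr13:119690168-119690267 on the plus strand. The others are Tm7sf2 at chr19:6067851-6067950 on the minus strand and Lss at chr10:76531505-76531604 on the plus strand. Capitals mark the matches, which on the opposite strand read ATTGG and CCGCCC.
Hmgcs1: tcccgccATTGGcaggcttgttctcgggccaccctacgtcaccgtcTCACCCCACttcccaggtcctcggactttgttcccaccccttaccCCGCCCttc
Tm7sf2: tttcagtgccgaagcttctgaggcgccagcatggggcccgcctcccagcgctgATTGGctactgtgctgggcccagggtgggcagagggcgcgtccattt
Lss: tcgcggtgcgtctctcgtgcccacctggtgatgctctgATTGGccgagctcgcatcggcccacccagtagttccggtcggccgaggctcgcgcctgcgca
The TCACNCCAC match of Hmgcs1 begins 137 bases before the start site. The CCAAT boxes shown begin 176 bases before it in Hmgcs1, 47 in Tm7sf2 and 62 in Lss, all on the opposite strand. Tm7sf2, lower in cast, and Lss, higher in cast but near the lowest signals called, both hold this box. It was in 23 of the 27 genes with a window, or 85.2%, against 41.1% of all genes. How the box relates to direction was not tested.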

How the data were processed

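Muscle RNA, isolated with a column kit, was turned into Cy3-labelled cRNA for 1-colour Agilent arrays with mm9 probe coordinates, per the labels' protocols and the file headers. The submitters' processing notes name Agilent Feature Extraction 9.5. The deposited intensity of a spot is background-subtracted and detrended within its array, with a surrogate for spots near background, per the file headers. Both arrays share a slide. A further deposited table, used as an alternative, holds the intensity scaled to the 75th percentile of all spots, with column medians of 9.00 for control and 8.70 for cast.

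The intensity was log2-transformed, spots with a non-uniformity flag (2 and 9) were left out, replicate spots averaged, and the 75th percentile of the non-control probes (384.6 for control, 486.2 for cast) subtracted on the log2 scale. A probe was well above background when over 0.5 of its spots had the software's flag, which held for 60.6% of probes on the control and 56.8% on the cast array. A gene, named as on the array, took its brightest probe that passed on both arrays. No gene spot was saturated. A bound sets the bright signal against the higher of the dim probe's own and the lowest signal called well above background there.

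Every member is named. Of the further lists, those 1.5-fold apart and Acacb are named, with Lbr, Scd3 and Scd4 added after their values were seen; some genes of the rule are not reported here. Members and lists were chosen with earlier results of these data known. The median of all genes and percent past 1.5-fold or 2-fold served as background. Alternatives used Python 3.11.15, R 4.3.3 and limma 3.58.1 (normexp with offset 50, quantile, loess). The steps were run on simulated data, made from the control array with known changes added. That run did not test the call above background or the larger noise of dim spots.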

Additional observations from a re-analysis of the deposited data

How the results depend on the processing

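Of 32 members, 16 kept their sign in each of the 12 alternatives that gave a value, and 28 did so leaving aside no scaling and spike-in scaling; 3, Scd1, Tm7sf2 and Dhcr7, stayed past 1.5-fold in all, though Dhcr7 is too dim to enter the brighter genes. No value past 1.5-fold changed sign. The members at least 1.5-fold higher, 2 in the main setting, were 4 with median, quantile and loess scaling, where Srebf2 and Fasn were added and 9.59%, 7.53% and 7.89% of all genes were higher, 6 with no scaling and spike-in scaling, where 24.3% and 25% of all genes were, and 1 with normexp and among brighter genes, where Lss was lost or left out and 4.96% and 7.20% of all genes were. Those lower, 4 in the main setting, were 3 with median scaling and normexp, where Srebf1 was lost at -0.58 and -0.48 and 6.11% and 4.34% of all genes were lower, 2 without scaling and on the spike-in scale (Tm7sf2 and Dhcr7, beside 2.55% and 2.47% of all genes) and 2 among the 18 brighter members (Tm7sf2 and Scd2, beside 6.96%). With no scaling and spike-in scaling, which move all genes up, the median of all members was 0.20 and 0.21, of regulators 0.21 and 0.22, of the mevalonate group 0.16 and 0.18, of squalene and lanosterol 0.76 and 0.77, of lanosterol to cholesterol 0.23 and 0.24, of chain synthesis 0.55 and 0.56, of desaturases 0.11 and 0.13, of elongases 0.20 and 0.22, of further sterol genes 0.36 and 0.37, and of further fatty acid genes 0.30 and 0.31. Among brighter genes, fewer members remained, and the medians were 0.04 for regulators, -0.27 for squalene and lanosterol (Fdft1 alone), -0.21 for lanosterol to cholesterol, 0.17 for desaturases and -0.29 for further fatty acid genes. The squalene and lanosterol median was 0.12 with normexp, and with the mean of probes that of chain synthesis was 0.31 and that of further fatty acid genes -0.18. A change under the spot-level SD of 0.10 counts as the same. Naming probes through their accession left the probes of the members as they were. The values of dim genes such as Lss, Cyp51, Dhcr7, Fasn and Srebf2 are limited by signal over background. No replicate could be left out.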
